A study of Mus musculus with 2 samples.

Results

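The 9 genes described here make or modify the ocular surface glycocalyx: the membrane mucins Muc1, Muc4, Muc15, Muc16 and Muc20, the secreted mucin Muc5ac, the uroplakins Upk1b and Upk3bl, and the sialyltransferase St6galnac1. They were chosen by symbol and are 9 of the 32285 genes listed for each library. The data are single-cell RNA counts from mouse cornea and limbus made with the 10x Genomics system, with 1 library labelled Pax6 +/- (Pax6 het) and 1 labelled wt. Both came from anterior segments stripped of lens, retina and iris, with most but not all of the conjunctiva discarded. The series names 2 mice per genotype, does not say whether they were pooled, and gives no sex, age, strain or Pax6 allele.

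Membrane mucins are large, heavily O-glycosylated proteins that stand on the apical surface of corneal and conjunctival epithelium, where with galectin-3 they form a wettable barrier. Muc5ac is the gel-forming mucin of conjunctival goblet cells. Uroplakins are membrane proteins best known from the plaques of the bladder's umbrella cells, and St6galnac1 adds sialic acid to the first sugar of O-glycans. Pax6 is a transcription factor of eye development that is required for the corneal keratin Krt12. Krt4 is a keratin of mucosal epithelia such as the conjunctiva, whereas Krt13 marks superficial or mucosal-type epithelium. Both are called mucosal keratins below, as a short name and not as an identity of the cells.

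Barcodes entered if they held 500 or more genes, 1000 or more unique molecular identifiers (UMIs) and no more than 20% mitochondrial UMIs, which gave 9542 cells in the library labelled Pax6 het and 10154 in the library labelled wt, with 33 barcodes found in both. Cells with at least 30 UMIs of Krt5, Krt14 and Krt15 together per 10000 were taken as epithelial: 6796 cells with a median of 14175 UMIs in the library labelled Pax6 het, and 8552 cells with a median of 11294 UMIs in the library labelled wt. Levels are UMIs scaled to a common class total (CPM) summed over a class of cells, and ratios are the library labelled Pax6 het over the library labelled wt. With 1 library per genotype there is no replicate, no p-value and no SE, and every interval is an exact 95% interval that covers counting error only. A gene was counted as higher or lower where it differed at least 2-fold and reached 20 CPM in either class. A gene that reached 20 CPM in a single class could therefore count only as higher in that class.

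Pax6 RNA did not run in the direction of the labels, and as the Pax6 allele is not given, its level cannot check them. Pax6 was higher in the epithelium of the library labelled Pax6 het, at 743 CPM, than in the library labelled wt, at 372 CPM, so the groups are called throughout by their labels, and their cells Pax6 het-labelled and wt-labelled cells. Cells holding Xist but none of 4 Y-linked transcripts numbered 4409, against 3759 cells with the reverse, in the library labelled Pax6 het, and 9603 against 0 in the library labelled wt, so the libraries also differ in the sex of their cells. Ratios between the Xist-only cells of both libraries are therefore given further on. The keratins differed as well. Epithelial Krt12 was 1769 CPM in the library labelled Pax6 het and 29618 CPM in the library labelled wt, Krt13 was 1480 CPM in Pax6 het-labelled and 579 CPM in wt-labelled cells, and Krt4 was 896 CPM in Pax6 het-labelled and 54.6 CPM in wt-labelled cells. Summed CPM of 7 keratocyte and fibroblast genes inside the epithelial gate, all 7 with UMIs, was 553 in the library labelled Pax6 het and 111 in the library labelled wt, and the part of such RNA in the results was not tested.

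Promoter sequence is shown for Muc4 and Muc20, whose genes lie tail to tail and whose UMIs moved together across classes, and for Muc1, which did not move with them between the libraries. Each is the 250 bases before the RefSeq start on GRCm38.p6, at chr3:89228806-89229055 (plus strand) for Muc1, chr16:32735636-32735885 (plus strand) for Muc4 and chr16:32797436-32797685 (minus strand) for Muc20, written 5′ to 3′ with TATAAA in capitals.
Muc1: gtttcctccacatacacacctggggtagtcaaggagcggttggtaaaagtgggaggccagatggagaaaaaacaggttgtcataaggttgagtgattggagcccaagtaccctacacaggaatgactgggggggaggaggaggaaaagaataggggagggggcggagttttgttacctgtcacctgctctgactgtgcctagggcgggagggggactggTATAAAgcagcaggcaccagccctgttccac
Muc4: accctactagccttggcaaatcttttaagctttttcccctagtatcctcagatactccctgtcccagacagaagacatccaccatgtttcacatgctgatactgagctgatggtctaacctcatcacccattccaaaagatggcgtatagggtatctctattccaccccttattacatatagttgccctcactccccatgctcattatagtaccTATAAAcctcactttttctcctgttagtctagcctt
Muc20: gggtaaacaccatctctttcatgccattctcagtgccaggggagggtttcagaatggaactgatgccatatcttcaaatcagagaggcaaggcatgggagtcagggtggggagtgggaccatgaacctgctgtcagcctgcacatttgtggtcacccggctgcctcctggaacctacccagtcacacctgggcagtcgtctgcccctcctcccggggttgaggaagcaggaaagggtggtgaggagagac
The TATAAA box begins 31 bases before the start in Muc1 and 36 bases before it in Muc4, and these letters are not in the window of Muc20 on either strand. They are in 12.4% of 32851 RefSeq promoters of this length. The other letters searched on both strands were CACCC (in 52% of promoters), GGAAG (64.1%), TGANTCA (6.75%), AACCGGTT (0.116%) and TTCACGC (1.03%). None of the 5 is in the Muc1 window, Muc4 has CACCC 126 and 87 bases before its start, and Muc20 has CACCC in either orientation at 147, 98 and 17 bases and GGAAG at 29 bases before its start. Sequences matched 5 of the 9 members, and these matches are descriptions of letters only.

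Across the whole epithelium, 4 of the 6 members that reached 20 CPM were at least 2-fold lower in the library labelled Pax6 het and none was higher, against 6.44% of all 7092 tested genes lower and 13.2% higher. The median log2 ratio of these 6 was -2.24, beside 0.17 over all tested genes. The 4 were St6galnac1, Muc15 and both uroplakins, whereas Muc4 and Muc20 were under 2-fold lower. St6galnac1, Muc15 and Muc20 reached 20 CPM in the library labelled wt only, so the filter let them count only as lower. Muc1, which stayed under 20 CPM in both libraries and was therefore not counted, was the one well-covered mucin that was higher over the whole epithelium.

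St6galnac1 had the ratio farthest from 1 among the 7 members with enough UMIs to rank, which leaves out Muc5ac and Muc16. It is encoded on chromosome 11 (116765025 to 116775507, minus strand, GRCm38, ENSMUSG00000009588). Epithelial cells held 484 UMIs (4.68 CPM) in the library labelled Pax6 het and 18674 UMIs (168 CPM) in the library labelled wt, a ratio of 0.0279 (0.0254 to 0.0305). After every cell was thinned to 5000 UMIs, which left out 858 shallower Pax6 het-labelled and 1608 shallower wt-labelled cells, 2.21% (1.85 to 2.61) of cells in the library labelled Pax6 het and 44.8% (43.6 to 46.0) in the library labelled wt had a St6galnac1 UMI, and unthinned the shares were 5.19% of Pax6 het-labelled and 58.8% of wt-labelled cells. In non-epithelial cells, gated on stromal, vascular, Schwann and immune markers, the thinned shares were 0.0586% at a median depth of 8465 UMIs in the library labelled Pax6 het and 1.99% at 8850 UMIs in the library labelled wt, so both epithelial shares stood above that background.

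Muc15, a short membrane mucin, lies on chromosome 2 (110721340 to 110739527, plus strand, ENSMUSG00000050808), wholly inside Ano3 on the opposite strand. It was at 18.9 CPM (1955 UMIs) in the library labelled Pax6 het and 121 CPM (13435 UMIs) in the library labelled wt, a ratio of 0.157 (0.149 to 0.164). Ano3, whose reads could be counted as Muc15 or the reverse if strand was not used, was at 8.95 CPM in the library labelled Pax6 het and 2.01 CPM in the library labelled wt, so its level moved the other way. A Muc15 UMI was found in 5.84% of thinned cells in the library labelled Pax6 het and 26.5% in the library labelled wt, beside 0.234% of Pax6 het-labelled and 0.997% of wt-labelled non-epithelial cells.

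The uroplakins followed each other. Upk1b, a tetraspanin (chromosome 16, 38773184 to 38800328, minus strand, ENSMUSG00000049436), was at 133 CPM (13802 UMIs) in the library labelled Pax6 het and 564 CPM (62716 UMIs) in the library labelled wt, a ratio of 0.237 (0.232 to 0.241). Upk3bl, a single-pass relative of uroplakin 3 (chromosome 5, 136054492 to 136064326, plus strand, ENSMUSG00000006143), was at 463 CPM (47921 UMIs) in the library labelled Pax6 het and 2462 CPM (273917 UMIs) in the library labelled wt, a ratio of 0.188 (0.186 to 0.190). Nearly every wt-labelled epithelial cell held Upk3bl: after thinning, 59.1% of epithelial cells had a UMI in the library labelled Pax6 het and 98.9% in the library labelled wt. Among non-epithelial cells, 1.23% of Pax6 het-labelled and 21.8% of wt-labelled cells held it. Upk1b was found in 29.2% of Pax6 het-labelled and 86.3% of wt-labelled epithelial cells, and in 0.527% of Pax6 het-labelled and 6.81% of wt-labelled non-epithelial cells. In these non-epithelial cells Upk3bl was at 3.09 CPM in Pax6 het-labelled and 46.9 CPM in wt-labelled cells, and Krt12 at 9.91 CPM in Pax6 het-labelled and 620 CPM in wt-labelled cells.

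Muc4, a membrane mucin with EGF-like domains (chromosome 16, 32735886 to 32782391, plus strand, ENSMUSG00000079620), was at 230 CPM (23789 UMIs) in the library labelled Pax6 het and 390 CPM (43395 UMIs) in the library labelled wt, a ratio of 0.590 (0.580 to 0.599). The share of cells that carried it differed less, at 18.4% (17.4 to 19.4) of thinned epithelial cells in the library labelled Pax6 het and 20.6% (19.7 to 21.6) in the library labelled wt, with 1.06% of Pax6 het-labelled and 1.83% of wt-labelled non-epithelial cells. Muc20 (chromosome 16, 32777419 to 32797435, minus strand, ENSMUSG00000035638) had the same ratio, 0.590 (0.558 to 0.623), from 19.7 CPM in the library labelled Pax6 het and 33.4 CPM in the library labelled wt. Both passed 2-fold under edgeR's and DESeq2's scaling factors, at 0.469 with edgeR's and 0.462 with DESeq2's for each gene. Those factors shifted all log2 ratios of this comparison by -0.33 and by -0.35.

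Muc1, the mucin with a signalling cytoplasmic tail (chromosome 3, 89229057 to 89233381, plus strand, ENSMUSG00000042784), ran the other way. It was at 18.6 CPM (1921 UMIs) in the library labelled Pax6 het and 3.48 CPM (387 UMIs) in the library labelled wt, a ratio of 5.34 (4.79 to 5.97). A thinned UMI was found in 4.99% of epithelial cells in the library labelled Pax6 het and 0.950% in the library labelled wt, beside 0.176% of Pax6 het-labelled and 0.166% of wt-labelled non-epithelial cells. Muc16, the largest of the membrane mucins (chromosome 9, 18495455 to 18674530, minus strand, ENSMUSG00000109564), gave 17 UMIs in the library labelled Pax6 het and 5 in the library labelled wt, too few for any statement on its classes.

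**Figure D1:**
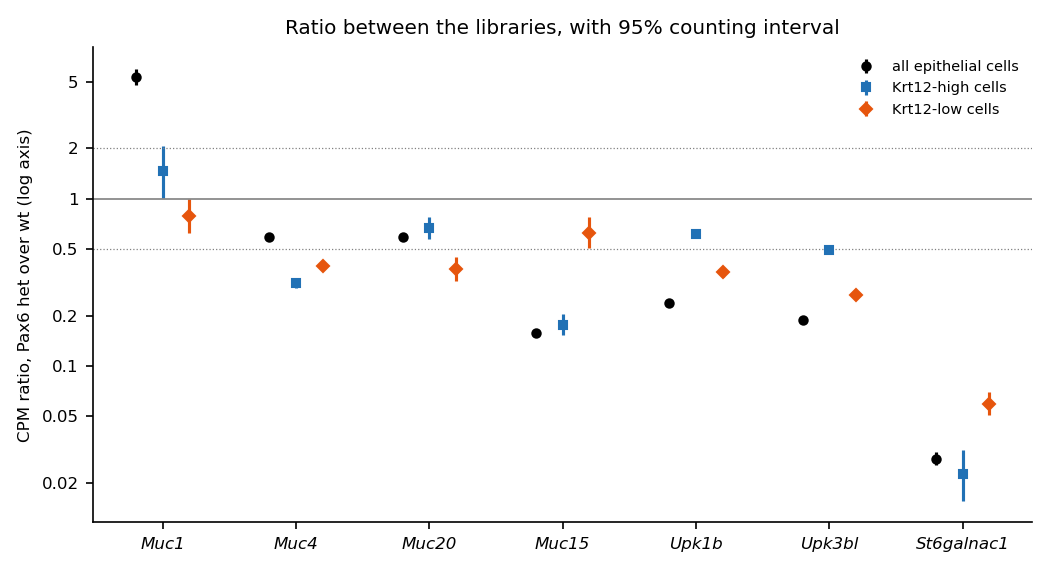
Ratio of CPM in the library labelled Pax6 het over the library labelled wt (log axis) for the 7 members with enough UMIs, in all epithelial cells, Krt12-high cells and Krt12-low cells. Bars are exact 95% counting intervals and dotted lines mark 2-fold; St6galnac1 lies lowest in each class, between 0.0226 and 0.0593, and Muc1 is the one gene above 1 in all epithelial cells, at 5.34.

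Since the libraries hold different kinds of epithelial cell, the members were next read by keratin class. Krt12-high cells (at least 50 Krt12 UMIs per 10000) were 497 in the library labelled Pax6 het and 8271 in the library labelled wt. Krt13-positive cells (at least 5 per 10000) were 1544, or 22.7%, of Pax6 het-labelled and 886, or 10.4%, of wt-labelled cells. Krt4-positive cells (at least 5 per 10000) were 1904, or 28.0%, of Pax6 het-labelled and 106, or 1.24%, of wt-labelled cells. There were 158 cells within 2-fold of the Krt12 cut, 736 of the Krt13 cut and 1355 of the Krt4 cut in the library labelled Pax6 het, against 376, 514 and 119 cells in the library labelled wt, so these classes are ranges along a gradient. The epithelial gate itself had 661 of 9542 kept Pax6 het-labelled cells and 3608 of 10154 kept wt-labelled cells within 2-fold of its cut.

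The mucin transcripts of the library labelled Pax6 het sat in cells with both mucosal keratins. The 1256 Krt12-low cells positive for Krt13 and Krt4 were 18.5% (17.6 to 19.4) of its epithelial cells and held 79.7% (77.8 to 81.5) of Muc1, 80.1% (79.6 to 80.6) of Muc4, 77.4% (75.5 to 79.2) of Muc20, 72.2% (70.1 to 74.2) of Muc15 and 65.5% (61.1 to 69.7) of St6galnac1 UMIs. They held less of the uroplakins, with 50.5% of Upk1b and 47.4% of Upk3bl. The 421 Krt12-high cells negative for both mucosal keratins, 6.20% of the epithelium, carried 16.1% of Upk1b and 14.8% of Upk3bl but only 0.517% of Muc4.

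Krt12-high cells were 96.7% of wt-labelled epithelial cells, so a transcript spread evenly would lie nearly all in them. Muc4 had 41545 of 43395 UMIs, Muc20 3562 of 3720 and Muc1 only 309 of 387 in the Krt12-high cells of the library labelled wt. The 803 Krt12-high cells with Krt13 and without Krt4, 9.39% (8.78 to 10.0) of its epithelium, held 67.9% (67.4 to 68.3) of Muc4, 69.4% (67.9 to 70.8) of Muc20 and 40.1% (35.1 to 45.1) of Muc1 UMIs. Whether these 803 cells lie superficially in the cornea was not tested. The 7410 Krt12-high cells with neither mucosal keratin, 86.7% of the epithelium, held 68.6% of Muc15, 66.4% of Upk1b, 60.1% of Upk3bl and 67.5% of St6galnac1 UMIs, which is less than their share of cells. Muc1 was the exception: 33 Krt12-low cells with Krt13 and Krt4, 0.386% of the epithelium, held 15.5% (12.04 to 19.5) of its UMIs, and 41 Krt12-high cells with both held 13.4%.

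**Figure D2:**
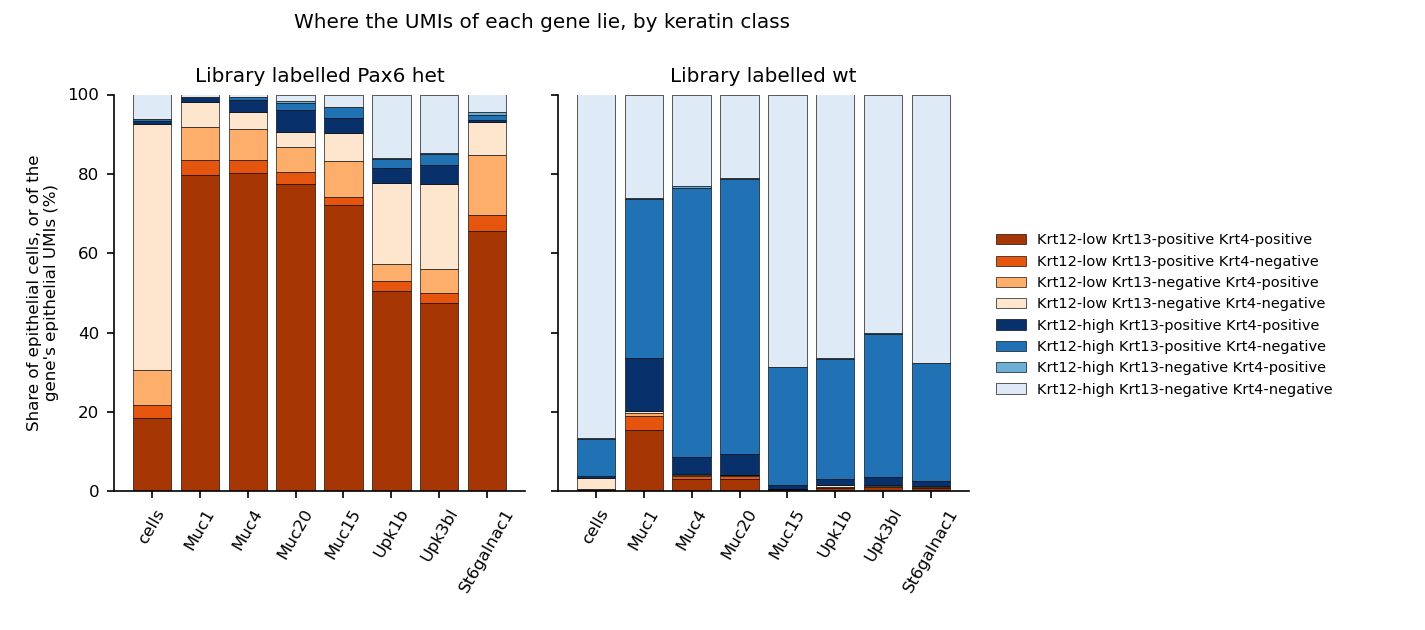
Share of epithelial cells and of each gene's epithelial UMIs (%, stacked to 100) by combination of Krt12, Krt13 and Krt4, in the library labelled Pax6 het and in the library labelled wt. The Krt12-low class with Krt13 and Krt4 holds 80.1% of Muc4 UMIs in the library labelled Pax6 het, and the Krt12-high class with Krt13 alone holds 67.9% in the library labelled wt.

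Within each library, Krt13 marked the cells rich in membrane mucins. All 6 members at 20 CPM in the library labelled Pax6 het were at least 2-fold higher in Krt13-positive than in Krt13-negative cells and none was lower, against 6.89% of all genes higher and 9.87% lower. Of these, Muc1, Muc15 and Muc20 reached 20 CPM in Krt13-positive cells only, so the filter let them count only as higher. Of 6 members in the library labelled wt, 5 were higher and none lower, against 6.95% and 18.9% of all genes. Muc20 reached 20 CPM in Krt13-positive cells only there as well. Krt13-positive cells were also deeper, with medians of 17653 UMIs against 13631 in Krt13-negative cells of the library labelled Pax6 het, and 19883 against 10752 in the library labelled wt. At an equal depth of 5000 UMIs, a Muc4 UMI was found in 58.5% of Krt13-positive and 7.03% of Krt13-negative Pax6 het-labelled cells, and in 90.4% of Krt13-positive and 12.05% of Krt13-negative wt-labelled cells. The scaling factors of edgeR shifted all log2 ratios of Krt13-positive over Krt13-negative cells by 0.27 in the library labelled Pax6 het and by 0.49 in the library labelled wt.

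Muc4 and Muc20 differed most and alike in both libraries. Muc4 was at 640 CPM in Krt13-positive and 42.8 CPM in Krt13-negative cells of the library labelled Pax6 het, 15.0-fold (14.4 to 15.5), and at 1603 CPM in Krt13-positive and 114 CPM in Krt13-negative cells of the library labelled wt, 14.1-fold (13.8 to 14.4). Muc20 was at 55.2 CPM in Krt13-positive and 3.49 CPM in Krt13-negative Pax6 het-labelled cells, 15.8-fold (13.9 to 18.1), and at 141 CPM in Krt13-positive and 8.88 CPM in Krt13-negative wt-labelled cells, 15.9-fold (14.7 to 17.2). Muc1 was at 50.2 CPM in Krt13-positive and 4.13 CPM in Krt13-negative Pax6 het-labelled cells, 12.2-fold, and at 13.6 CPM in Krt13-positive and 1.17 CPM in Krt13-negative wt-labelled cells, 11.6-fold. The Krt13 ratios of these 3 genes had overlapping counting intervals in the library labelled Pax6 het and the library labelled wt for Muc1 and Muc20, and met at 14.4 for Muc4.

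Muc15 behaved otherwise. It was at 48.8 CPM in Krt13-positive and 5.25 CPM in Krt13-negative cells of the library labelled Pax6 het, 9.29-fold (8.30 to 10.4), but in the library labelled wt it was at 203 CPM in Krt13-positive and 102 CPM in Krt13-negative cells, 1.99-fold (1.92 to 2.06), the one member under 2-fold there, with a range of 1.54 to 2.91 over the alternative settings. Upk1b was 3.18-fold and Upk3bl 2.97-fold higher in Krt13-positive cells of the library labelled Pax6 het, and 2.16-fold and 2.84-fold in the library labelled wt. St6galnac1 was at 10.7 CPM in Krt13-positive and 1.94 CPM in Krt13-negative cells of the library labelled Pax6 het, under the 20 CPM needed to count, and at 289 CPM in Krt13-positive and 140 CPM in Krt13-negative cells of the library labelled wt.

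The levels followed Krt13 as a gradient and not as a step. Over bins of 0, under 1, 1 to 5, 5 to 20, 20 to 100 and at least 100 Krt13 UMIs per 10000, Muc4 was at 15.7, 51.4, 116, 276, 765 and 1339 CPM in the library labelled Pax6 het and at 40.6, 199, 443, 955, 2159 and 3364 CPM in the library labelled wt. Muc1 went through 2.08, 5.34, 9.07, 20.02, 59.2 and 115 CPM in the library labelled Pax6 het and through 0.911, 1.36, 2.44, 6.38, 19.1 and 48.6 CPM in the library labelled wt. In every bin Muc1 was therefore higher, and Muc4, Muc15, Muc20, Upk1b, Upk3bl and St6galnac1 lower, in the library labelled Pax6 het. The last bin of the library labelled wt holds 26 cells.

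Muc15 and the uroplakins departed from a straight climb. Muc15 in the library labelled wt had levels of 75.0, 151, 206, 214, 194 and 146 CPM over the same bins, highest at 5 to 20 Krt13 UMIs per 10000, whereas in the library labelled Pax6 het it was lowest with no Krt13, at 2.17 CPM, and highest in the last bin, at 82.2 CPM. Upk1b in the library labelled Pax6 het was flat over the first 3 bins, at 81.4, 76.5 and 76.0 CPM, and then stood at 124, 288 and 537 CPM. St6galnac1 stayed between 0.608 and 15.6 CPM in the library labelled Pax6 het, and between 123 and 373 CPM in the library labelled wt, so the ranges of the libraries did not overlap in any bin.

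**Figure D3:**
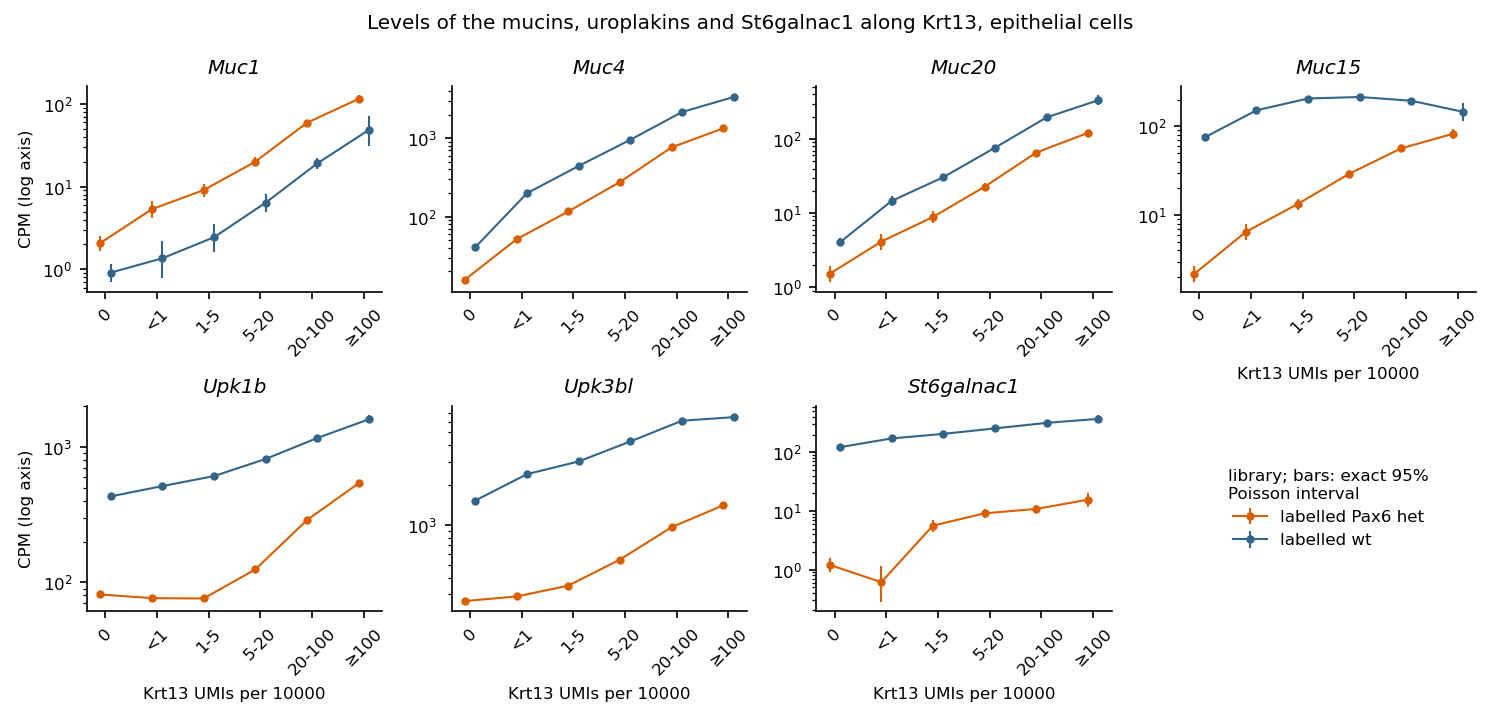
CPM (log axis) of 7 members in epithelial cells binned by Krt13 UMIs per 10000, in the library labelled Pax6 het and the library labelled wt, with exact 95% Poisson intervals. Muc1 is the one gene whose line for the library labelled Pax6 het lies above that for the library labelled wt, and Muc15 in the library labelled wt peaks at 214 CPM in the middle bins.

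Krt4 separated the mucins nearly as Krt13 did in the library labelled Pax6 het, where all 6 members at 20 CPM were higher in Krt4-positive cells and none lower, against 6.95% of all genes higher and 8.86% lower. Again Muc1, Muc15 and Muc20 reached 20 CPM in the positive cells only, so the filter let them count only as higher. Muc4 was at 583 CPM in Krt4-positive and 31.6 CPM in Krt4-negative cells, 18.5-fold (17.7 to 19.3), and Muc1 at 46.1 CPM in Krt4-positive and 3.08 CPM in Krt4-negative cells, 15.0-fold (12.9 to 17.4). With 106 Krt4-positive cells in the library labelled wt, 3 of 7 members were higher and none lower, against 6.26% and 14% of all genes. Of the 3, Muc1 reached 20 CPM in Krt4-positive cells only. Muc1 was at 51.6 CPM in Krt4-positive and 2.49 CPM in Krt4-negative cells there, 20.7-fold (16.5 to 25.8), Muc20 was 4.61-fold and Muc4 4.42-fold higher, and Muc15 had a ratio of 0.784 (0.682 to 0.899). Krt4-positive cells thus held Muc1 at 46.1 CPM in Pax6 het-labelled and 51.6 CPM in wt-labelled cells, although the epithelia as a whole differed 5.34-fold.

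Krt12 separated different members in each library. In the library labelled Pax6 het the uroplakins were the 2 of 5 members higher in Krt12-high cells and Muc4 the 1 lower, against 3.46% of all genes higher and 5.08% lower. Upk1b was at 350 CPM in Krt12-high and 113 CPM in Krt12-low cells, 3.09-fold (2.97 to 3.22), Upk3bl at 1223 CPM in Krt12-high and 392 CPM in Krt12-low cells, 3.12-fold (3.05 to 3.19), and Muc4 at 120 CPM in Krt12-high and 240 CPM in Krt12-low cells, a ratio of 0.498 (0.468 to 0.530) that lay at the threshold and passed it under some settings only. In the library labelled wt 2 of 7 members were higher in Krt12-high cells, Muc15 at 123 CPM in Krt12-high and 30.02 CPM in Krt12-low cells (4.11-fold) and St6galnac1 at 170 CPM in Krt12-high and 80.3 CPM in Krt12-low cells (2.12-fold). Muc1 was the 1 lower, at 2.86 CPM in Krt12-high and 25.5 CPM in Krt12-low cells (0.112). The shares of all genes were 3.76% higher and 7.56% lower.

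The genotype labels were then compared among cells on the same side of the Krt12 cut. Among Krt12-low cells, 6299 in the library labelled Pax6 het and 281 in the library labelled wt, 5 of 7 members were at least 2-fold lower and none higher, against 3.74% of all genes lower and 6.17% higher. St6galnac1, Muc20, Muc15 and Muc1 reached 20 CPM in the library labelled wt only, so they could count only as lower. St6galnac1 was at 4.76 CPM in the library labelled Pax6 het and 80.3 CPM in the library labelled wt (0.0593, 0.0506 to 0.0695). Upk3bl was at 392 CPM in Pax6 het-labelled and 1478 CPM in wt-labelled cells (0.265), and Upk1b at 113 CPM in Pax6 het-labelled and 313 CPM in wt-labelled cells (0.362). Muc20 was at 19.5 CPM in Pax6 het-labelled and 51.6 CPM in wt-labelled cells (0.378), and Muc4 at 240 CPM in Pax6 het-labelled and 604 CPM in wt-labelled cells (0.398). Both uroplakins, both of these mucins and the sialyltransferase were thus lower together. Muc15 was at 18.6 CPM in Pax6 het-labelled and 30.02 CPM in wt-labelled cells (0.621, 0.503 to 0.774), and Muc1 at 19.9 CPM in Pax6 het-labelled and 25.5 CPM in wt-labelled cells (0.782, 0.624 to 0.994), so the higher Muc1 of the whole epithelium was not seen at low Krt12. Krt12 itself was not equal in this class, at 82.9 CPM in the library labelled Pax6 het and 1741 CPM in the library labelled wt.

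Among Krt12-high cells, 497 in the library labelled Pax6 het and 8271 in the library labelled wt, 4 of 6 members were lower and none higher, against 5.1% and 8.7% of all genes. Of the 6, St6galnac1 reached 20 CPM in the library labelled wt only. St6galnac1 was at 3.85 CPM in the library labelled Pax6 het and 170 CPM in the library labelled wt (0.0226, 0.0156 to 0.0316). Muc15 was at 21.7 CPM in Pax6 het-labelled and 123 CPM in wt-labelled cells (0.176), Muc4 at 120 CPM in Pax6 het-labelled and 384 CPM in wt-labelled cells (0.312), and Upk3bl at 1223 CPM in Pax6 het-labelled and 2489 CPM in wt-labelled cells (0.491, 0.482 to 0.501). Upk1b, at 350 CPM in Pax6 het-labelled and 571 CPM in wt-labelled cells (0.613), and Muc20, at 22.0 CPM in Pax6 het-labelled and 32.9 CPM in wt-labelled cells (0.667), were under 2-fold apart. Muc1 stayed under 20 CPM in both libraries, with 37 UMIs in Pax6 het-labelled and 309 in wt-labelled cells. Its ratio in this class was 0.968 to 3.23 over 20 settings. Krt12-high cells of the library labelled Pax6 het held both uroplakins widely, with an Upk3bl UMI in 98.0% and an Upk1b UMI in 76.5% of thinned cells, beside 99.4% for Upk3bl and 87.6% for Upk1b in the library labelled wt. Krt12 itself was not equal in this class either, at 19814 CPM in Pax6 het-labelled and 30407 CPM in wt-labelled cells.

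With cells of both libraries split by the cuts of all 3 keratins, St6galnac1 was at least 2-fold lower in the library labelled Pax6 het in 8 of 8 classes, with ratios of 0.0124 to 0.288. Keratin levels were not equalised within these classes. Upk3bl was lower in 7 of 8, Upk1b and Muc4 in 6 of 8, Muc15 in 4 of 8 and Muc20 in 3 of 8, with Muc20 higher in 1 class, of 4 Pax6 het-labelled and 17 wt-labelled cells. Muc1 was lower in 4 of 8 classes and higher in 2, with ratios of 0 to 2.26, so its higher level over the whole epithelium was not kept across these classes. Its intervals in both higher classes included 1, with 2 Muc1 UMIs of the library labelled wt in each, as did those of 2 of the 4 lower classes. Only 2 classes held at least 50 cells in both libraries. Among Krt12-high cells negative for Krt13 and Krt4, 421 in the library labelled Pax6 het and 7410 in the library labelled wt, St6galnac1 was at 3.05 CPM in Pax6 het-labelled and 143 CPM in wt-labelled cells (0.0214), Muc15 at 8.86 CPM in Pax6 het-labelled and 104 CPM in wt-labelled cells (0.0848) and Muc4 at 17.9 CPM in Pax6 het-labelled and 113 CPM in wt-labelled cells (0.158). Upk3bl, at 1031 CPM in Pax6 het-labelled and 1864 CPM in wt-labelled cells (0.553), and Upk1b, at 323 CPM in Pax6 het-labelled and 472 CPM in wt-labelled cells (0.685), were closer. Among Krt12-low cells negative for both, 4220 in the library labelled Pax6 het and 224 in the library labelled wt, St6galnac1 was at 0.721 CPM in Pax6 het-labelled and 10.4 CPM in wt-labelled cells (0.0692) and both uroplakins at 0.409 to 0.411 of the wt-labelled level. Muc4 there was at 18.0 CPM in Pax6 het-labelled and 13.6 CPM in wt-labelled cells, a ratio of 1.33 (0.902 to 2.04) whose interval includes 1. The wt-labelled St6galnac1 level of this class came from 20 UMIs. The part in it of the background seen in wt-labelled non-epithelial cells was not tested.

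The order of the classes was different for a mucin and for the sialyltransferase. Over the 8 classes with at least 50 cells, Muc4 was highest in Krt12-high Krt13-positive Krt4-negative cells of the library labelled wt at 1572 CPM, then in the Krt12-low classes of the library labelled Pax6 het with both mucosal keratins (694 CPM), Krt13 alone (260 CPM) and Krt4 alone (218 CPM). Krt12-high cells with neither, of the library labelled wt, came next at 113 CPM, and the last 3 classes, at 18.0, 17.9 and 13.6 CPM, had overlapping intervals. St6galnac1 was highest in the 2 Krt12-high classes of the library labelled wt, at 297 and 143 CPM. It was between 0.721 and 11.5 CPM in the other 6, where each class but the lowest overlapped its neighbour. Those are classes of the library labelled Pax6 het, except wt-labelled Krt12-low cells with neither mucosal keratin (10.4 CPM). Classes under 50 cells were left out, among them wt-labelled Krt12-low cells with both mucosal keratins (33 cells), Krt13 alone (9) or Krt4 alone (15). In these, St6galnac1 was at 201, 260 and 159 CPM and Muc4 at 1713, 3513 and 440 CPM. High wt-labelled levels were thus not confined to Krt12-high cells.

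Muc20 and Muc4 kept 1 ratio of UMIs over most classes. Muc20 gave 8.57 UMIs per 100 of Muc4 (8.19 to 8.97) in the library labelled Pax6 het and 8.57 (8.29 to 8.87) in the library labelled wt. Among Krt13-positive cells it gave 8.63 in Pax6 het-labelled and 8.81 in wt-labelled cells, and among Krt13-negative cells 8.16 in Pax6 het-labelled and 7.80 in wt-labelled cells. The largest departure with many UMIs was in Krt12-high cells of the library labelled Pax6 het, at 18.3 (15.7 to 21.4) against 8.57 in the library labelled wt, and their Krt13-negative and Krt4-negative subset at 27.6 (18.3 to 40.7) from 34 Muc20 over 123 Muc4 UMIs, against 7.85 in the library labelled wt. Among Krt12-low cells negative for both mucosal keratins the ratio was 7.72 (6.04 to 9.74) in the library labelled Pax6 het and 19.2 (5.77 to 50.9) in the library labelled wt, there from 5 Muc20 over 26 Muc4 UMIs. The lowest ratio of an epithelial class was 6.87 (5.70 to 8.21), in Krt12-low Krt4-positive Krt13-negative cells of the library labelled Pax6 het. The genes overlap on opposite strands over 4973 bases (chromosome 16, 32777419 to 32782391), and as the strand setting of the counting is not given in the sources used here, reads of one and reads of the other in that stretch cannot be told apart. The same cells carried both: after thinning, 87.5% of Muc20-positive cells in the library labelled Pax6 het and 83.8% in the library labelled wt also had a Muc4 UMI, and so did 80.1% of Muc1-positive against 15.2% of Muc1-negative Pax6 het-labelled cells, and 75.8% of Muc1-positive against 20.1% of Muc1-negative wt-labelled cells.

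**Figure D4:**
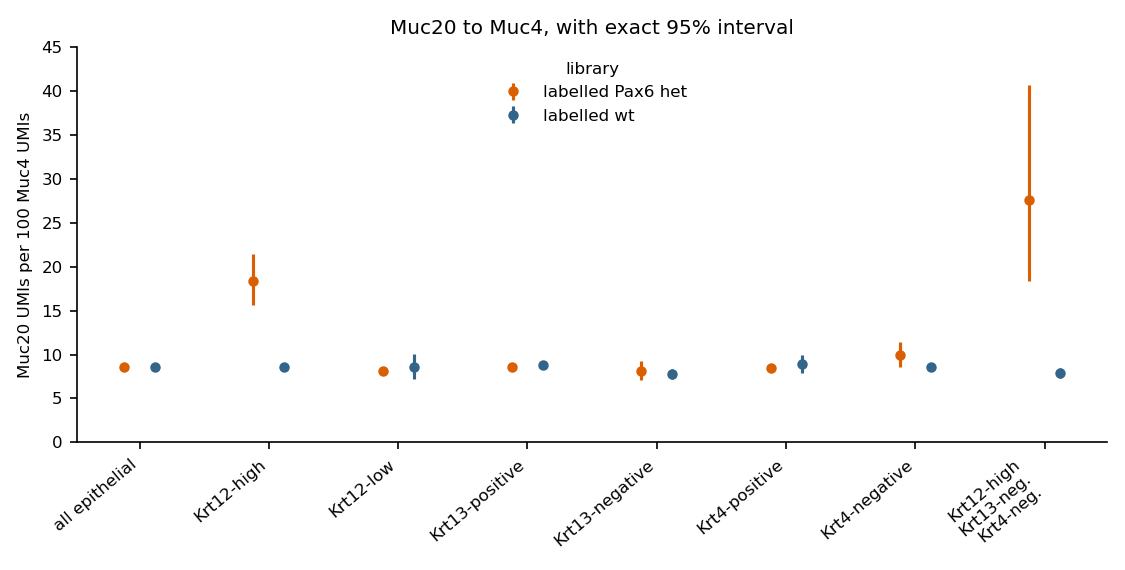
Muc20 UMIs per 100 Muc4 UMIs by epithelial class, in the library labelled Pax6 het and the library labelled wt, with exact 95% intervals. The 2 Krt12-high classes of the library labelled Pax6 het, at 18.3 and 27.6, stand above the other classes drawn, which lie between 7.80 and 9.95.

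The genes whose levels were most like each member's over the 8 classes with at least 50 cells were found among 7999 genes by Pearson r of log2(CPM + 1), as a description over 8 points that share 2 libraries. Upk1b and Upk3bl were in each other's lists (r = 0.986), with Pkp3, a desmosomal plaque protein, and for Upk3bl also Sfn, an epithelial 14-3-3 protein. Muc4 was most like Capza1 (0.995), an actin-capping subunit, and Chmp1b, Pdlim2, Btc and Hopx, while Muc20 was most like Zdhhc9 (0.996), Mpzl2 and Liph, and Muc4 and Muc20 had r = 0.967. Muc1 was most like Trabd, Elf5, an epithelial ETS factor, and Dram2, Muc15 like Svip, Gsta4 and Plcb3, and St6galnac1 like Golga4 (0.994), Gpr160 and Fbxo9. Muc1 and Upk1b had r = -0.075.

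Other genes of the sialic acid pathway differed in direction between the libraries. Of 20 listed, 8 reached 20 CPM in the epithelium, and 2 were higher and 1 lower in the library labelled Pax6 het, against 13.2% of all genes higher and 6.44% lower. St3gal1, which caps the O-glycan core with sialic acid, was at 34.3 CPM in the library labelled Pax6 het and 3.16 CPM in the library labelled wt (10.8-fold). St3gal3 was at 20.02 CPM in Pax6 het-labelled and 6.77 CPM in wt-labelled cells (2.96-fold), and St3gal5, the ganglioside GM3 synthase, at 2.23 CPM in Pax6 het-labelled and 34.7 CPM in wt-labelled cells (0.0643). All 3 were under 2-fold apart among Krt12-low cells, where the ratio of St3gal1 was 1.73 (1.35 to 2.26), of St3gal3 1.44 (1.07 to 1.99) and of St3gal5 0.669 (0.367 to 1.36). Among those cells St3gal6 was at 20.4 CPM in the library labelled Pax6 het and 2.28 CPM in the library labelled wt (8.95-fold, 4.34 to 22.3) and St3gal4 at 18.9 CPM in Pax6 het-labelled and 46.7 CPM in wt-labelled cells (0.406), the 1 higher and 1 lower of 9 measured, against 6.17% and 3.74% of all genes. Among Krt12-high cells St3gal4 ran the other way, at 24.2 CPM in the library labelled Pax6 het and 1.67 CPM in the library labelled wt (14.5-fold, 11.8 to 17.7). Over the whole epithelium, under 20 CPM in both libraries, it was 6.66-fold higher. St3gal1 was also higher in Krt12-high cells (7.63-fold) and St3gal5 lower (0.0127), which made 2 higher and 1 lower of 8 measured, beside 8.7% and 5.1% of all genes.

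The gene that activates sialic acid and the one that carries it into the Golgi were higher in Krt13-positive cells of both libraries. Cmas, which makes CMP-sialic acid, was at 452 CPM in Krt13-positive and 65.4 CPM in Krt13-negative cells of the library labelled Pax6 het (6.91-fold) and at 589 CPM in Krt13-positive and 159 CPM in Krt13-negative cells of the library labelled wt (3.70-fold). Slc35a1, its Golgi transporter, was 4.58-fold higher in Krt13-positive cells of the library labelled Pax6 het and 2.68-fold in those of the library labelled wt. The transferases did not share a direction. In the library labelled Pax6 het St3gal1 was at 6.97 CPM in Krt13-positive and 46.8 CPM in Krt13-negative cells (0.149), and St3gal6 (0.186) and St3gal2 (0.251) were lower too, which made 2 higher and 3 lower of 10 measured, beside 6.89% and 9.87% of all genes. St3gal4 was under 2-fold higher in Krt13-positive cells there, at 28.8 CPM against 15.1 CPM (1.91). St6galnac1 was higher in them as well, but under 20 CPM in both classes. In the library labelled wt Gne, the first enzyme of sialic acid synthesis, was also higher (3.06-fold), and St6galnac2, a relative of St6galnac1, was lower at 15.0 CPM in Krt13-positive and 102 CPM in Krt13-negative cells (0.146), which made 3 higher and 1 lower of 6, beside 6.95% and 18.9% of all genes.

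**Figure D5:**
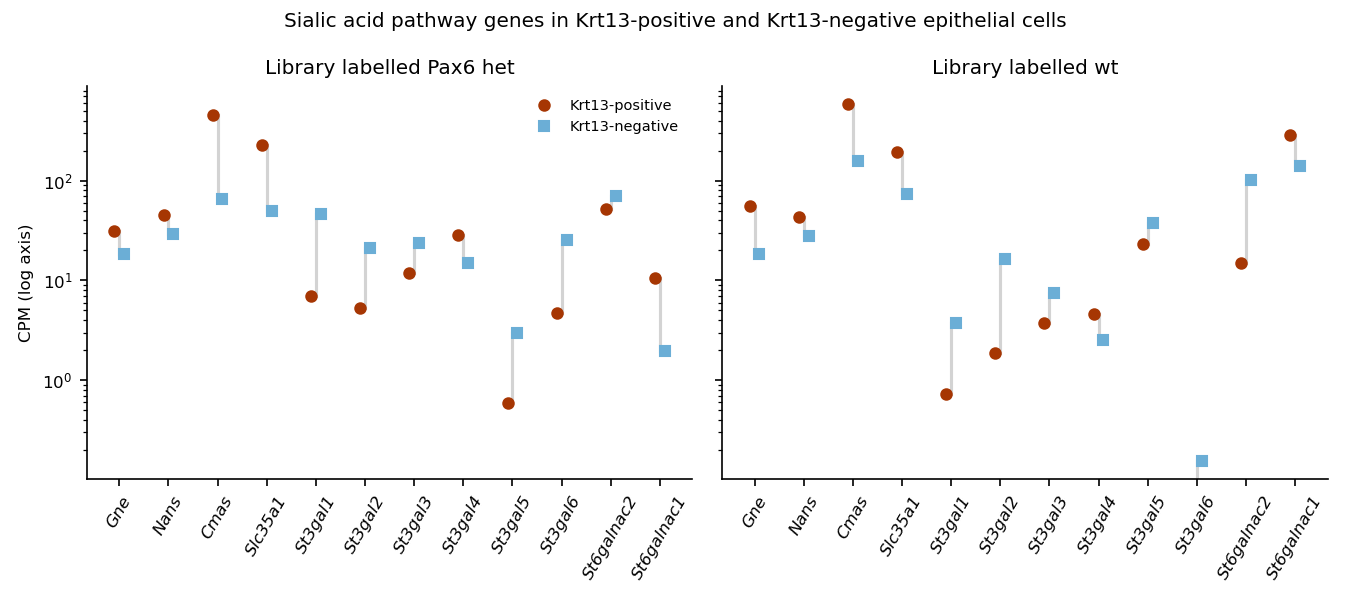
CPM (log axis) of sialic acid pathway genes in Krt13-positive and Krt13-negative epithelial cells of the library labelled Pax6 het and the library labelled wt. Cmas and Slc35a1 are higher in Krt13-positive cells of both, and St3gal6 in Krt13-positive cells of the library labelled wt, with no UMI, is not drawn.

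Of the enzymes that start mucin O-glycans, 6 of 15 reached 20 CPM in the epithelium, and Galnt4 was the 1 lower, at 9.68 CPM in the library labelled Pax6 het and 51.1 CPM in the library labelled wt (0.189). Over all genes 6.44% were lower and 13.2% higher. Among Krt12-low cells Galnt3 was lower as well, at 60.4 CPM in Pax6 het-labelled and 158 CPM in wt-labelled cells (0.381), and Galnt4 had a ratio of 0.345, beside 0.323 among Krt12-high cells. Krt13-positive cells had 3.38-fold more Galnt12 in the library labelled Pax6 het and 3.43-fold more Galnt3 in the library labelled wt. Of 14 genes that extend the sugars, 3 were measured and 2 were higher in the library labelled Pax6 het, beside 13.2% of all genes higher. Gcnt2, the I-branching enzyme, was at 42.2 CPM in Pax6 het-labelled and 1.57 CPM in wt-labelled cells (26.9-fold), and Fut8, the core fucosyltransferase of N-glycans, at 45.8 CPM in Pax6 het-labelled and 15.8 CPM in wt-labelled cells (2.90-fold). Neither was 2-fold apart among Krt12-low cells, where Gcnt2 was at 45.3 CPM in Pax6 het-labelled and 26.8 CPM in wt-labelled cells (1.69-fold, 1.36 to 2.14) and Fut8 was 1.66-fold higher. Among Krt12-high cells Fut8 was 2.14-fold higher and Gcnt2 was under 20 CPM in both libraries. Gcnt2 was lower in Krt13-positive cells of the library labelled Pax6 het, at 14.1 CPM, than in Krt13-negative cells, at 55.1 CPM.

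Among partners of the mucins, 8 of 9 were measured in the epithelium, of which 1 was higher, a share near the 13.2% of all genes. It was Msn, which links membranes to actin, at 77.7 CPM in the library labelled Pax6 het and 2.04 CPM in the library labelled wt (38.1-fold). The fold was smaller within Krt12 classes, at 4.36 among Krt12-low cells, from 82.6 CPM in Pax6 het-labelled and 18.9 CPM in wt-labelled cells, and at 16.6 among Krt12-high cells. Msn was lower in Krt13-positive than in Krt13-negative cells of the library labelled Pax6 het, at 19.6 CPM in Krt13-positive and 104 CPM in Krt13-negative cells. Lgals3, galectin-3, which cross-links membrane mucins, was at 499 CPM in the library labelled Pax6 het and 943 CPM in the library labelled wt, under 2-fold. Among Krt12-low cells it was at the threshold, at 483 CPM in Pax6 het-labelled and 968 CPM in wt-labelled cells (0.499, 0.481 to 0.518), and counted as the 1 lower of 8 there, beside 3.74% of all genes. It was 3.38-fold higher in Krt13-positive than in Krt13-negative Pax6 het-labelled cells and 2.45-fold higher among wt-labelled cells. Slc9a3r1, a scaffold of apical membranes, was 3.25-fold higher in Krt13-positive than in Krt13-negative Pax6 het-labelled cells and 3.04-fold higher among wt-labelled cells. Of 7 epithelial regulators 5 were measured and 1 was lower, beside 6.44% of all genes. It was Klf4, at 364 CPM in the library labelled Pax6 het and 982 CPM in the library labelled wt (0.371), and again lower among Krt12-low cells (0.479). Elf3 and Grhl3 were higher in Krt13-positive cells of both, at 2.76-fold and 3.93-fold in the library labelled Pax6 het and 3.49-fold and 2.56-fold in the library labelled wt.

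Other mucins and uroplakins were scarce. Of 13 further mucin genes listed in the files only Cd164, a small sialomucin, reached 20 CPM in the epithelium, at 100 CPM in the library labelled Pax6 het and 315 CPM in the library labelled wt (0.318, and 0.499 among Krt12-high cells), and none of 4 other uroplakins did. Of 10 goblet cell genes Agr2, which folds mucins in the endoplasmic reticulum, was the one measured, at 43.4 CPM in the library labelled Pax6 het and 4.79 CPM in the library labelled wt (9.07-fold), and it was 3.92-fold higher in Krt13-positive cells of the library labelled Pax6 het. Among Krt12-low cells it was at 45.2 CPM in Pax6 het-labelled and 59.7 CPM in wt-labelled cells (0.757). Among Krt12-high cells Agr2 was higher, at 24.2 CPM in Pax6 het-labelled and 3.23 CPM in wt-labelled cells (7.49-fold, 6.29 to 8.90). Goblet cell genes under 20 CPM did not share 1 direction over the whole epithelium. Fcgbp was lower, at 2.07 CPM in Pax6 het-labelled and 13.6 CPM in wt-labelled cells (0.152, 0.131 to 0.176). Spdef was higher, at 1.39 CPM in Pax6 het-labelled and 0.306 CPM in wt-labelled cells. The rest gave 17 UMIs or fewer in either library.

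Muc5ac (chromosome 7, 141788972 to 141819231, plus strand, ENSMUSG00000037974) came from 4 cells, all in the library labelled Pax6 het. The epithelial gate held 77 UMIs in 2 of them, against 0 UMIs in the library labelled wt, where 3 UMIs would be a level of 0.0270 CPM. The cell with 54 Muc5ac UMIs, of 38053 UMIs in all, also had 66 of Krt5, 39 of Krt4 and 63 of Agr2. It had 0 of the goblet cell genes Tff1, Tff2, Spdef, Fcgbp and Muc5b. The cell with 23, of 6254 UMIs in all, had 14 of Agr2, 9 of Tff1 and 8 of Muc5b, all goblet cell genes. No class level of Muc5ac can be read from so few cells.

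Members also differed by sex within the library labelled Pax6 het. Epithelial cells with Y-linked UMIs and no Xist (2485 cells) had lower levels than cells with Xist alone (3376 cells) for Muc4, at 198 CPM with Y-linked UMIs and 255 CPM with Xist (0.777, 0.755 to 0.798), and for St6galnac1, at 2.68 CPM with Y-linked UMIs and 6.57 CPM with Xist (0.407, 0.325 to 0.507). Muc1, Muc15, Muc20 and Upk1b had ratios of 0.707 to 0.782 in the same direction, and Upk3bl had 1.01 (0.990 to 1.03). Krt12-low cells were 2397 of the 2485 with Y-linked UMIs and 3019 of the 3376 with Xist. Among them Upk3bl was higher with Y-linked UMIs, at 428 CPM against 352 CPM with Xist (1.22, 1.19 to 1.24). Upk1b had 0.893 (0.858 to 0.930) there, while Muc4 (0.738) and St6galnac1 (0.390) stayed lower. Whether these cells came from 1 mouse of each sex is not given, so sex and animal cannot be told apart.

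Between the Xist-only epithelial cells of both libraries, 3376 labelled Pax6 het and 8156 labelled wt, 4 members were at least 2-fold lower in the library labelled Pax6 het. The share of all genes lower or higher was not computed for these cells, so this count has no background beside it. St6galnac1 was at 6.57 CPM in Pax6 het-labelled and 168 CPM in wt-labelled cells (0.0391). Muc15 was at 22.1 CPM in Pax6 het-labelled and 121 CPM in wt-labelled cells (0.184). Upk3bl was at 460 CPM in Pax6 het-labelled and 2464 CPM in wt-labelled cells (0.187), and Upk1b at 149 CPM in Pax6 het-labelled and 563 CPM in wt-labelled cells (0.264). Muc1, at 20.9 CPM in Pax6 het-labelled and 3.46 CPM in wt-labelled cells (6.03-fold), reached 20 CPM and counted as higher. Muc4 (0.658) and Muc20 (0.692) were under 2-fold lower. The ratios among Krt12-low Xist-only cells were 0.0852 for St6galnac1, 0.238 for Upk3bl, 0.379 for Upk1b, 0.438 for Muc20 and 0.457 for Muc4.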

How the data were processed

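Droplet single-cell RNA counts of mouse cornea and limbus were used, 1 library per genotype. The deposited values are raw UMI counts per gene and barcode, made by the authors with Cell Ranger 8.0.0 per the file headers and with the GRCm38 build per the submitters' processing notes; whether counting used strand, and which transcript end was read, is not given in the sources used here. No doublet caller was run. UMIs were summed over each class, scaled to CPM over the class total without the 13 mitochondrially encoded genes, and compared in 9 comparisons, with exact Poisson intervals for levels, conditional binomial intervals for ratios and Clopper-Pearson intervals for shares at 95% (scipy 1.17.1, numpy 2.4.6, pandas 2.3.3, Python 3.11.15). The calculation was tested on simulated counts. No test between samples was possible. Scaling factors of edgeR 4.0.16 and DESeq2 1.42.0 (R 4.3.3) were alternatives, as were other cuts, gates, filters, depths, doublet proxies and sexes. Non-epithelial cells had at least 3 marker genes of a class and at least 20 marker UMIs per 10000. Named genes are the members, every gene of 8 fixed lists that differed 2-fold at 20 CPM between the libraries or between Krt13 classes, and for each member genes among the 5 most like it. The members and lists were chosen with earlier results of these data known. Gene positions come from GENCODE M21 and promoters from RefSeq.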

Additional observations from a re-analysis of the deposited data

Results flagged for a closer look

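Outside the epithelial gate, 93 Muc5ac UMIs were found in the library labelled Pax6 het and none in the library labelled wt, in cells that none of the comparisons used. All but 1 lay in a single cell of 15717 UMIs that passed no marker list and also held 21 UMIs of Agr2, 16 of Muc5b and 2 of Spdef, and the remaining UMI was in a cell with stromal markers.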

How the results depend on the processing

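No paired analysis was possible because there is 1 library per genotype, and for the same reason no library could be left out. Of 332 recomputed counts of members, 309 stayed within 1.5 times of the reported count. Of the recomputed ratios of single members, 859 stayed within their counting interval and 433 moved beyond it, and none that was at least 2-fold apart turned its direction. The count of members lower in Krt12-high cells of the library labelled Pax6 het, reported as 1, was 0 with an epithelial cut of 60, with a Krt12 cut of 20, with either tool's scaling, without cells holding stray stromal, vascular or immune UMIs, and in cells with Y-linked UMIs. It was 2 with the wide keratin gate, with a filter of 5 CPM and in Xist-only cells, and 3 with no filter. In the library labelled wt the lower count of 1 was 2 with the wide gate and 0 by the mean over cells, after thinning and without stray UMIs, and the higher count of 2 was 4 by the mean over cells and after thinning. Between the libraries, the 5 lower members in Krt12-low cells were 3 by the mean over cells. Counts reported as 0 higher became 1 (5 CPM filter), 3 (no filter) and 1 (Xist-only) in the whole epithelium, 2 in Krt12-low and 1 in Krt12-high cells with no filter, and the 0 lower with Krt13 in the library labelled Pax6 het became 2 with no filter. Over 18 settings the epithelial ratio of St6galnac1 was 0.0159 to 0.0394, of Upk3bl 0.147 to 0.205 and of Muc1 4.19 to 6.13. Muc4 (0.462 to 0.727) and Muc20 (0.461 to 0.714) lay on both sides of 2-fold, and Muc1 in Krt12-low cells (0.662 to 1.17) on both sides of 1; the cause was not tested.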

Other observations

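Cells low in Krt5, Krt14 and Krt15 that passed a wider gate with Krt12, Krt13, Krt4, Krt19 and Krt8 numbered 85 in the library labelled Pax6 het and 819 in the library labelled wt, and lie outside the comparisons above. In them Muc1 was at 319 CPM (140 UMIs) in the library labelled Pax6 het and 3.002 CPM (12 UMIs) in the library labelled wt, a ratio of 106 (58.9 to 211). Muc4 was at 1041 CPM in Pax6 het-labelled and 923 CPM in wt-labelled cells, Upk1b at 964 CPM in Pax6 het-labelled and 793 CPM in wt-labelled cells and Upk3bl at 1153 CPM in Pax6 het-labelled and 1560 CPM in wt-labelled cells, each under 2-fold apart. St6galnac1 was again lower in the library labelled Pax6 het, at 11.4 against 128 CPM (0.0889, 0.0288 to 0.209). The position of these cells in the tissue was not tested.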
